A study of Mus musculus with 5 samples.

Results

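The genes described here encode 2 signal and receptor pairs of the limb bud and the adaptor that one of them uses: the chemokine Cxcl12 and its receptor Cxcr4, and the growth factor Hgf, its receptor Met and the docking protein Gab1. They were chosen by name, as 5 of the 23284 gene symbols counted in each library, and all 5 passed the filter on low counts. RNA of mouse forelimb was profiled in 5 libraries of 3 groups. The mutant group (2 libraries) was distal forelimb, the region of the future digits, of E11.5 embryos that lack both Hoxa13 and Hoxd13 function (Hoxa13-/-;Hoxd13-/-), on a mixed C57BL/6 and CD1 background. The Hoxa13 allele carries a neomycin cassette in the coding region and the Hoxd13 allele has lacZ placed into its first exon. Both are insertions in the line and not tissue-restricted deletions. The wild-type group (2 libraries) was the same part at the same stage on the same mixed background. The third group was 1 library of E10.5 forelimb bud of the CD1 strain, with no replicate. Per the labels' protocols the E11.5 RNA came from pools of dissected tissue, with 2 independent pools for each genotype, so the spread within a genotype is that between pools and not between embryos.

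CXCL12 is a secreted chemokine of connective tissue that attracts cells carrying the receptor CXCR4, among them muscle progenitors and endothelial cells, while a further receptor, ACKR3, takes CXCL12 up and clears it. HGF is secreted by limb mesenchyme and binds MET, a receptor tyrosine kinase on muscle progenitors, epithelial cells and some neurons. It releases muscle progenitors from the edge of the somite so that they can enter the limb bud, and GAB1 is the docking protein through which MET passes the signal on. In limb buds without MET or HGF, limb muscle does not form, and loss of CXCR4 or GAB1 impairs the migration of these cells.

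The stretches before the start sites of Cxcl12 and Cxcr4 are shown because Cxcl12 carries the main difference between the genotypes and Cxcr4 is its receptor. Each is the 250 bases before the annotated start in RefSeq on GRCm38.p6, read 5′ to 3′ on the gene's own strand, at chr6:117168285-117168534 (plus strand) for Cxcl12 and chr1:128592300-128592549 (minus strand) for Cxcr4. Capitals mark a match to 1 of 4 short motifs searched on both strands.
Cxcl12: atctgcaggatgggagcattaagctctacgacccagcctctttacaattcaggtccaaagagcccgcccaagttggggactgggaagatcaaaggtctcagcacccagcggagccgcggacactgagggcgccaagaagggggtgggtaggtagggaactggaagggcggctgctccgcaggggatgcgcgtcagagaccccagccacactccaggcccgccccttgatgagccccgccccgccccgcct
Cxcr4: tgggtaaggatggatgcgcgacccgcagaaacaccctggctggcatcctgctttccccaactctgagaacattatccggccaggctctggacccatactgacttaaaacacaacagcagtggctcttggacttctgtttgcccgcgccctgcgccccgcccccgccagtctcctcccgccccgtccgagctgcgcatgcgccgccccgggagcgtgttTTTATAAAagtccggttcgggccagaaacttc
The motifs were CAATAAA and TCGTAAA, core sequences of HOX13 proteins, TATAAA, the TATA box, and ACGTG, the core of the hypoxia response element. They were present in 4.2%, 0.478%, 12.4% and 16.6% of the 32851 windows of this length in the table, in the same order. The Cxcl12 window held none of the 4. The Cxcr4 window held TATAAA, on both strands in overlapping positions, beginning 30 bases before the start on the gene's strand. All 5 genes were matched in the table, with 7 start sites in all. A HOX13-type core was found in 1 of these 7 windows, as CAATAAA beginning 65 bases before the second start site of Hgf, and Met held ACGTG. These matches describe the letters and not binding.

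Cxcl12 was the only gene of the 5 called between the genotypes in the reported fit, at an adjusted p below 0.05. It measured 72.7 and 66.6 CPM in mutant replicates 1 and 2, 21.0 and 25.1 CPM in wild-type replicates 1 and 2, and 54.5 CPM at E10.5, where CPM are the counts of a gene set against the library size scaled by the trimmed mean of M-values (TMM) over the 5 libraries. Both mutant libraries lay far above both wild-type libraries, and above the E10.5 library. The mean was 69.6 ± 4.32 CPM (SD, n = 2) in the mutant and 23.1 ± 2.91 CPM (SD, n = 2) in wild type. The log2 fold change, mutant over wild type, was 1.60 (SE 0.11, 95% interval 1.35 to 1.84), which is 3.03-fold, with an adjusted p of 4.27e-06 in the quasi-likelihood test of edgeR. Only 0.94% of the 16166 genes tested had a larger log2 fold change. Of the 5 genes 1 rose and 0 fell, beside 3.82% of all genes tested that rose and 3.34% that fell, or 7.16% in either direction, at an adjusted p below 0.05. In whole tissue, a change in the number of cells of a type and a change in RNA per cell cannot be told apart.

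Cxcr4, the receptor, was at lower levels in the mutant, but its test did not pass the threshold. Its values were 3.69 and 4.94 CPM in the mutant libraries, 6.39 and 7.65 CPM in the wild-type libraries and 12.3 CPM at E10.5. The 2 mutant libraries lay below both wild-type libraries, and the E10.5 library lay above them all. The mean was 4.32 ± 0.880 CPM (SD, n = 2) in the mutant and 7.02 ± 0.893 CPM (SD, n = 2) in wild type, a log2 fold change of -0.70 (SE 0.20, 95% interval -1.13 to -0.27; edgeR adjusted p = 0.0529). The call depended on the method, with an adjusted p of 0.0413 in DESeq2, 0.0449 with the newer quasi-likelihood estimate of edgeR and 0.0434 with all 5 libraries in the fit. It depended on single libraries too. Leaving out mutant replicate 2 gave an adjusted p of 0.0161, and wild-type replicate 1 gave 0.00757. Leaving out mutant replicate 1 gave 0.38, and wild-type replicate 2 gave 0.114. The lowest count of Cxcr4 was 230, with an exact 95% Poisson interval of 201 to 262 that covers counting error only.

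**Figure D1:**
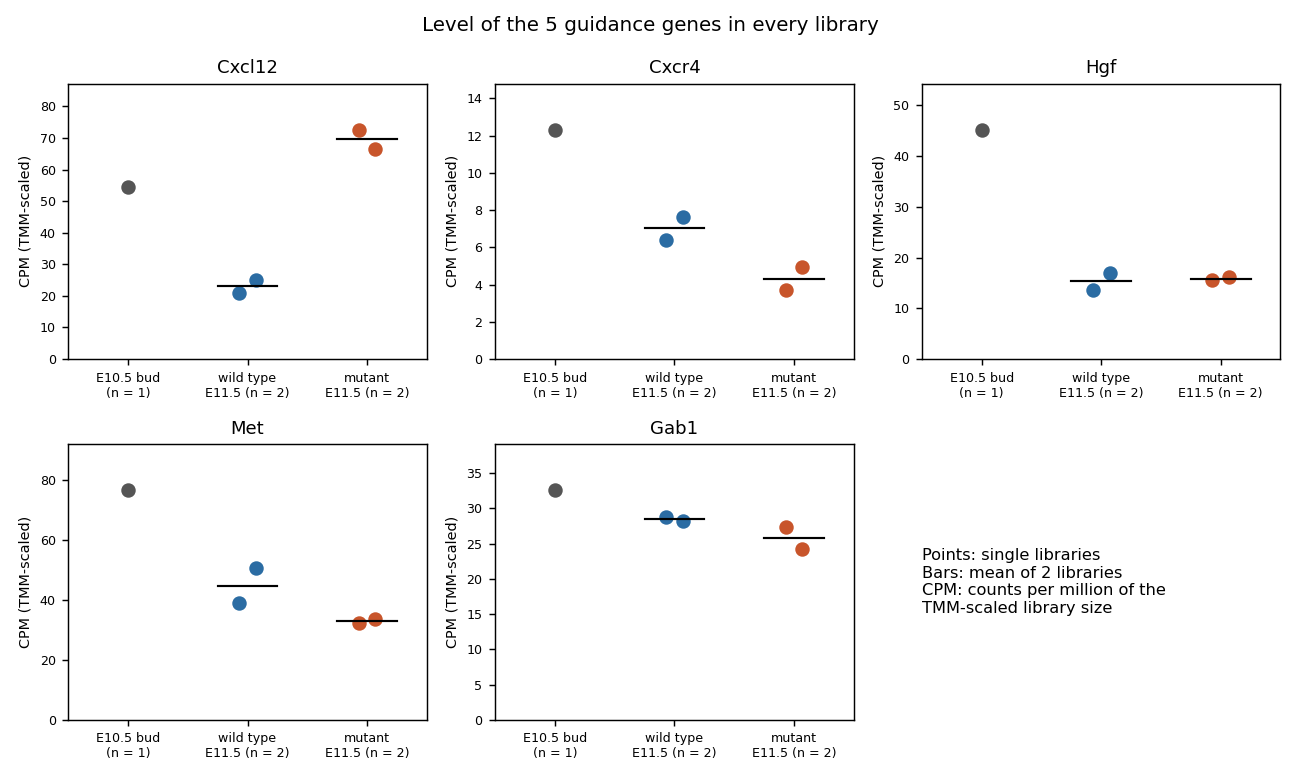
Level of each gene in CPM of the TMM-scaled library size (vertical axis, from 0) in the E10.5 library, the 2 wild-type libraries and the 2 mutant libraries (horizontal axis). Points are libraries and bars are means of 2 libraries. Cxcl12 is at 66.6 and 72.7 CPM in the mutant against 21.0 and 25.1 CPM in wild type, and Hgf is at 45.2 CPM at E10.5 and between 13.6 and 17.0 CPM at E11.5.

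Because ligand and receptor are read in the same library, the ratio of their counts needs no scaling between libraries. There were 3.29 and 3.28 Cxcl12 counts for each Cxcr4 count in wild-type replicates 1 and 2, 19.7 and 13.5 in mutant replicates 1 and 2, and 4.42 at E10.5. The wild-type libraries were nearly equal and the mutant libraries lay well above them and above the E10.5 library. Ackr3, the scavenging receptor, is listed under its older name Cxcr7 and was itself not called (log2 fold change -0.23, SE 0.12, edgeR adjusted p = 0.344). It measured 17.4 and 16.5 CPM in the mutant, 18.3 and 21.6 CPM in wild type and 21.6 CPM at E10.5. There were 4.17 and 4.05 Cxcl12 counts for each Ackr3 count in the mutant, 1.15 and 1.16 in wild type and 2.53 at E10.5. The ligand gene was thus higher against both of its receptor genes in both mutant libraries. These ratios contain Cxcl12 itself and were chosen with its values known, so they describe the libraries and were not tested.

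**Figure D2:**
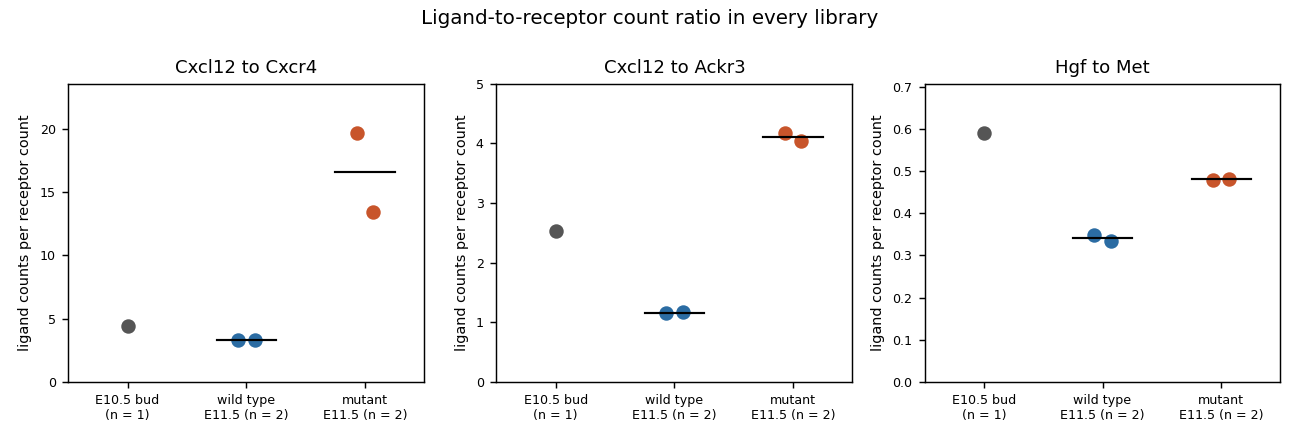
Counts of a ligand gene for each count of a receptor gene (vertical axis, from 0) in every library (horizontal axis), for Cxcl12 to Cxcr4, Cxcl12 to Ackr3 and Hgf to Met. Points are libraries and bars are means of 2 libraries. The Cxcl12 to Cxcr4 ratio is 13.5 and 19.7 in the mutant libraries against 3.28 and 3.29 in wild type.

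Hgf, the ligand of the other pair, showed no detectable difference between genotypes. It measured 15.5 and 16.2 CPM in the mutant libraries, 13.6 and 17.0 CPM in the wild-type libraries and 45.2 CPM at E10.5. The mutant libraries lay between the wild-type libraries, and the E10.5 library stood well above all 4. The log2 fold change was 0.06 (SE 0.14, edgeR adjusted p = 0.884), and its 95% interval ran from -0.24 to 0.35.

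Met, the receptor of HGF, was lower in the mutant libraries and close to the threshold. Its values were 32.3 and 33.7 CPM in the mutant, 39.0 and 50.6 CPM in wild type and 76.7 CPM at E10.5. The genotypes did not overlap, but the wild-type libraries differed from each other by more than the lower of them differed from the mutant. The log2 fold change was -0.44 (SE 0.12, 95% interval -0.71 to -0.17; edgeR adjusted p = 0.0556). Leaving out wild-type replicate 2 gave -0.22 (adjusted p = 0.225), a value smaller by more than 1.5 times. Leaving out wild-type replicate 1 gave -0.62 (adjusted p = 0.00028), and the call was then made. DESeq2 gave an adjusted p of 0.0313. There were 0.479 and 0.482 Hgf counts for each Met count in the mutant, 0.349 and 0.335 in wild type and 0.59 at E10.5.

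Gab1, the docking protein, varied least of the 5. It measured 27.3 and 24.2 CPM in the mutant libraries, 28.8 and 28.2 CPM in the wild-type libraries and 32.6 CPM at E10.5. The mutant libraries lay just below the wild-type libraries. The log2 fold change was -0.14 (SE 0.11, 95% interval -0.37 to 0.09; edgeR adjusted p = 0.539). In GENCODE vM21 an antisense gene overlaps exons of Gab1 and a gene model still to be tested experimentally overlaps exons of Hgf, so part of their counts may be uncertain, since the strand setting and annotation of the counting are not given in the sources used here. For 4 of the 5 genes the mutant and wild-type libraries did not overlap, Cxcl12 being higher and Cxcr4, Met and Gab1 lower. This was so for 49.3% of all genes tested (24% higher and 25.3% lower), so a lack of overlap between 2 and 2 libraries is common here.

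**Figure D3:**
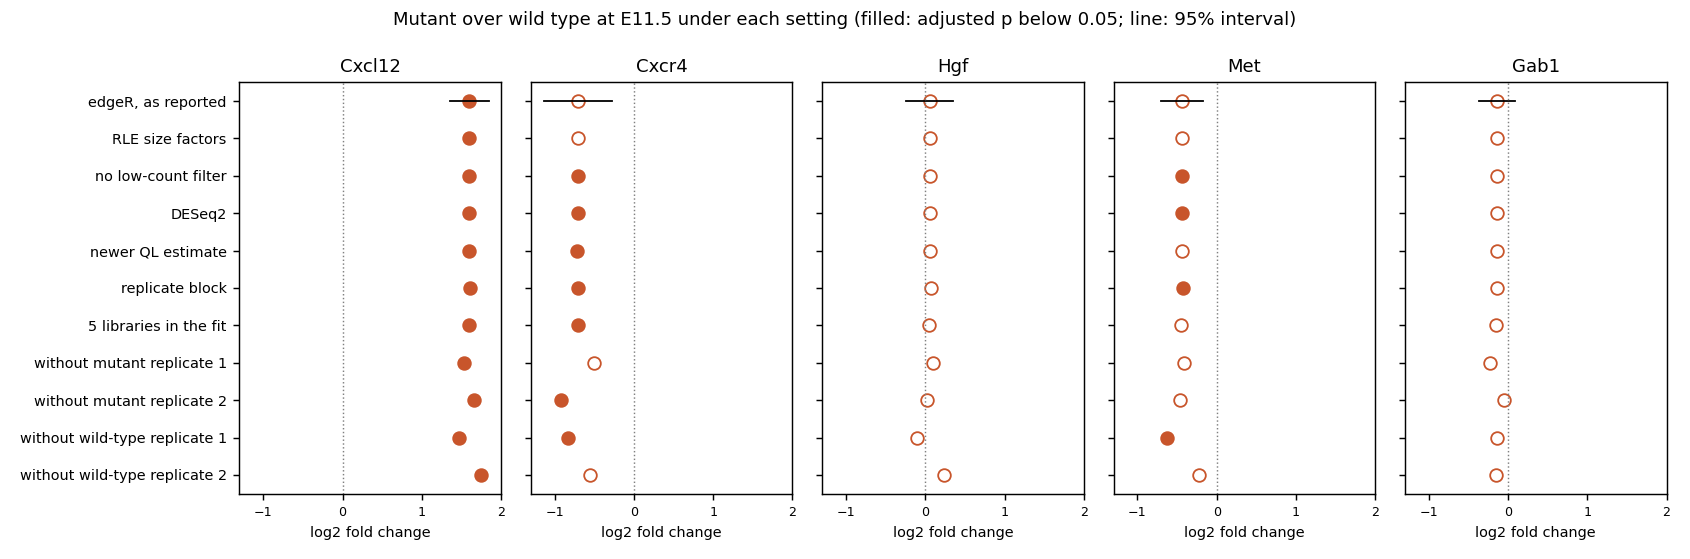
Log2 fold change, mutant over wild type at E11.5 (horizontal axis), for each gene under the reported fit and 10 alternatives (vertical axis). Filled points have an adjusted p below 0.05 and black lines are 95% intervals of the reported fit. Cxcl12 is filled in every fit, between 1.47 and 1.74, Cxcr4 and Met are filled in some, and Hgf and Gab1 in none.

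Levels can be set against each other only per length, here as CPM per kilobase of all exons in GENCODE vM21 (GRCm38), which need not be the annotation the authors counted on. On that scale Met was highest in wild type (5.07 and 6.59 CPM per kilobase), followed by Gab1 (5.67 and 5.56), Cxcr4 (3.53 and 4.23), Cxcl12 (2.57 and 3.07) and Hgf (1.89 and 2.36). Met and Gab1 overlapped in this order, and the others did not. In the mutant Cxcl12 was the highest of the 5 (8.89 and 8.14 CPM per kilobase), above Gab1 (5.37 and 4.77), Met (4.21 and 4.39), Cxcr4 (2.04 and 2.73) and Hgf (2.15 and 2.26). Cxcr4 and Hgf overlapped there. In the 1 library of E10.5 Met stood at 9.98 CPM per kilobase and the other 4 between 6.29 and 6.82.

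The E10.5 bud was set beside wild-type E11.5 as a description, because it has no replicate and because stage, dissected part and strain label all differ. Higher or lower here means a distance of at least 2-fold, in the same direction, to each wild-type library. The scale was log2 of TMM-scaled CPM, computed with 2 as the prior count. Hgf and Cxcl12 were higher at E10.5, that is 2 of the 5 genes, beside 4.06% of 16339 genes compared that were higher and 12.5% that were lower (16.6% in either direction). The mean log2 difference, E10.5 minus wild type, was 1.57 for Hgf (1.73 and 1.41 against wild-type replicates 1 and 2), which is 2.97-fold. It was 1.25 for Cxcl12 (1.37 and 1.12), which is 2.37-fold. Cxcr4 had 0.82 (0.94 and 0.69), Met 0.79 (0.98 and 0.60) and Gab1 0.19 (0.18 and 0.20), none of them past the 2-fold limit. The E10.5 library was richer in ribosomal RNA precursor, with 2.05% of its counts in Rn45s against 0.632% to 0.805% in the E11.5 libraries. With library totals in place of TMM the median gene moved from 0.01 to -0.25, Hgf stayed past the limit (1.32) and Cxcl12 did not (0.99, with 1.10 and 0.88 against the 2 libraries). Both comparisons share the wild-type libraries. Side by side, Cxcl12 was above wild type in the E10.5 library and in both mutant libraries, while Cxcr4 and Met were above it at E10.5 and below it in the mutant.

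Genes with the most similar profile over the 5 libraries were named by the root mean square (RMS) difference of log2 CPM, centred on each gene's mean, among genes with a mean of at least 5 CPM. For Cxcl12 these were Hoxd8, a central gene of the HoxD cluster (RMS difference 0.11), Ildr2, a membrane protein gene (0.14), and the zinc finger gene Zic5 (0.15). Hoxd8 measured 51.1 and 45.3 CPM in the mutant, 12.1 and 16.2 CPM in wild type and 39.0 CPM at E10.5, so it was likewise high in the mutant, low in wild type and intermediate at E10.5. Only 6 of 10877 genes lay within 0.25 of Cxcl12. For Cxcr4 the nearest were Adam12, a metalloprotease gene (0.08), Plch1, a phospholipase gene (0.13), and the keratin gene Krt8 (0.14), with 46 genes within 0.25. The nearest to Met were Pdlim5, a cytoskeletal adaptor gene (0.06), and the histone genes Hist1h2af (0.07) and Hist1h2ah (0.08), whose counts are uncertain because of near-identical copies, with 705 genes within 0.25. Cxcr4 and Met differed from each other by 0.18. Hgf was nearest to Pcbp1 (0.05), Dock10 (0.08) and Pde6d (0.09), with 243 genes within 0.25. Gab1 was nearest to Tgif1 (0.01), Pnkd (0.02) and Prkch (0.02) and had 7529 genes within 0.25, that is 69.2% of those compared, so its flat profile was a common one. With 5 libraries this likeness describes the profiles and says nothing of shared control.

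Over the 4 lists of related pathway genes 6 of 90 tested genes were called, or 6.67%, close to the 7.16% of all genes tested. In the CXCL12 axis, a list of 18 other receptors, partners, G proteins, arrestins and kinases, 0 of 17 tested genes rose and 1 fell, or 5.88%, with a median log2 fold change of -0.03 beside -0.00082 over all genes tested. The gene that fell was Itch, a ubiquitin ligase that sends CXCR4 to degradation. It measured 161 and 164 CPM in the mutant and 205 and 222 CPM in wild type (log2 fold change -0.39, SE 0.09, edgeR adjusted p = 0.0176). The call was lost when mutant replicate 1 (adjusted p = 0.165) or mutant replicate 2 (0.118) was left out. At an unadjusted p below 0.05 the list had 1 gene higher and 4 lower in edgeR, and DESeq2 called 0 higher and 1 lower. Leaving out wild-type replicate 1 gave 2 risen in this list and 1 fallen, and leaving out mutant replicate 1 gave 0 fallen. Cxcl14, a chemokine that can bind CXCR4, was not called (0.27, SE 0.11, adjusted p = 0.208), at 86.5 and 92.1 CPM in the mutant and 83.7 and 65.6 CPM in wild type. Without wild-type replicate 1 it had 0.44 with an adjusted p of 0.00358. At E10.5 Cxcl14 was lower than in wild type, at 28.0 CPM (log2 difference -1.40), as were Dpp4, a protease that cuts CXCL12 (-2.49), and Rgs16, a brake on G proteins (-1.41), while Mif, a cytokine that can also bind CXCR4, was higher (1.14).

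In the HGF-MET axis, a list of 28 activators, inhibitors, co-receptors, adaptors and effectors, 0 genes rose and 3 fell, or 10.7% beside 7.16% of all genes, with a median log2 fold change of -0.06. This count rested on the libraries used, since leaving out wild-type replicate 1 gave 5 risen and 5 fallen. Spint1, an inhibitor of the proteases that activate HGF, measured 8.64 and 9.32 CPM in the mutant and 13.5 and 14.9 CPM in wild type (-0.66, SE 0.13, edgeR adjusted p = 0.0114). Plat, the tissue plasminogen activator, measured 4.24 and 4.50 CPM in the mutant and 7.26 and 8.48 CPM in wild type (-0.84, SE 0.17, adjusted p = 0.0106). Stat3, a transcription factor that MET can activate, measured 35.0 and 31.8 CPM in the mutant and 45.8 and 46.8 CPM in wild type (-0.47, SE 0.10, adjusted p = 0.0123). At an unadjusted p below 0.05 the list had 3 genes higher and 7 lower in edgeR, and DESeq2 called 0 higher and 3 lower. In each of the 3 called genes both mutant libraries lay below both wild-type libraries. The Spint1 call was lost when mutant replicate 1 was left out (adjusted p = 0.0675), and the Stat3 call when mutant replicate 2 was (0.15). At E10.5 the adaptor Grb2 was higher than in wild type (log2 difference 1.51) and Mst1r, the receptor related to MET, was lower (-1.61).

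Among other chemokines and receptors 26 of 48 genes passed the filter, and 6 had no count in any library. The skin chemokine gene Ccl27a rose (0.86, SE 0.21, edgeR adjusted p = 0.028) and 0 fell, with 3.85% called and a median log2 fold change of 0.05. Leaving out mutant replicate 1 (0.0555), mutant replicate 2 (0.132) or wild-type replicate 2 (0.0585) ended this call. DESeq2 called 0 lower in this list, with 1 lower in edgeR at an unadjusted p below 0.05. Leaving out mutant replicate 1 gave 1 fallen. Among 19 vessel guidance genes 1 rose and 0 fell, or 5.26%, with a median of 0.02. DESeq2 likewise called 0 lower, and 3 were lower in edgeR at an unadjusted p below 0.05. Leaving out wild-type replicate 1 gave 4 risen in this list, and leaving out wild-type replicate 2 gave 2 fallen, while either mutant replicate left out gave 1 fallen. The gene that rose was Vegfd, a growth factor of lymphatic and blood vessels listed under its older name Figf. It measured 8.99 and 8.36 CPM in the mutant, 2.53 and 2.27 CPM in wild type and 10.4 CPM at E10.5 (log2 fold change 1.86, SE 0.18, edgeR adjusted p = 6.46e-05). Like Cxcl12, it was higher in both mutant libraries and at E10.5 than in either wild-type library.

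**Figure D4:**
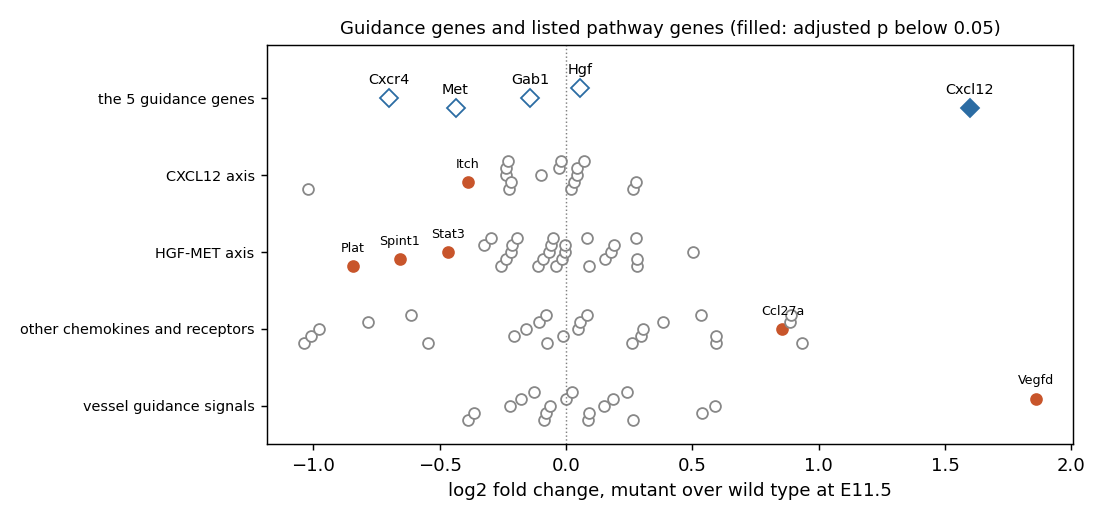
Log2 fold change, mutant over wild type at E11.5 (horizontal axis), of the 5 guidance genes (diamonds) and of the tested genes of 4 pathway lists (circles, spread vertically for legibility). Filled symbols have an adjusted p below 0.05 and are named. Cxcl12 (1.60) and Vegfd (1.86) stand apart on the right.

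Markers of the cells that carry the receptors were read in the same libraries. The 4 defining muscle genes Pax3, Lbx1, Myf5 and Myod1 summed to 11.9 and 13.1 CPM in the mutant, 12.0 and 12.8 CPM in wild type and 38.8 CPM at E10.5, so the genotypes overlapped while Cxcr4 and Met did not. Pax3, which marks muscle progenitors as they migrate, measured 3.77 and 3.87 CPM in the mutant, 3.25 and 3.42 CPM in wild type and 23.9 CPM at E10.5 (mutant over wild type 0.20, SE 0.20, edgeR adjusted p = 0.657; log2 difference at E10.5 2.83). Lbx1, a homeobox gene of the same cells, measured 1.03 and 0.77 CPM in the mutant, 0.764 and 0.723 CPM in wild type and 5.92 CPM at E10.5 (0.29, adjusted p = 0.733). The myogenic factor genes Myf5 (0.05, adjusted p = 0.931) and Myod1 (-0.33, adjusted p = 0.477) were not called. Myod1 was lower at E10.5, at 0.33 CPM against 3.67 and 3.47 CPM in wild type. Over the whole list 0 of 17 listed genes rose and 3 fell, among them Six4 (-0.48) and the cardiac actin gene Actc1 (-0.87), with a median of -0.32. That is 17.6% of the list called, beside 7.16% of all genes called and 3.34% that fell. Six4 alone measured 101 and 95.6 CPM in wild type, well above the sum of the 4 defining genes. Which cells carried it was not tested. The number fallen was 7 without wild-type replicate 1, and 5 without mutant replicate 2 or with no filter on low counts. The list summed to 467 and 628 CPM in the mutant, 769 and 692 CPM in wild type and 260 CPM at E10.5. This sum was lower in both mutant libraries. Ttn, named for its level, was the largest single value in the sum at E11.5. It measured 220 and 355 CPM in the mutant and 425 and 328 CPM in wild type, so the genotypes overlapped. Ttn was not called (-0.38, edgeR adjusted p = 0.277). No gene of the list was called higher by DESeq2, and 0 were higher in edgeR at an unadjusted p below 0.05. For each 100 counts of the 4 defining genes there were 31.2 and 37.7 Cxcr4 counts in the mutant, 53.2 and 59.8 in wild type and 31.8 at E10.5. The Met counts for each 100 were 273 and 257 in the mutant, 324 and 396 in wild type and 198 at E10.5. Against these 4 muscle markers both receptor genes were lower in both mutant libraries than in either wild-type library, and the part of the other muscle genes was not tested.

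The 4 defining endothelial genes Pecam1, Cdh5, Kdr and Tie1 summed to 156 and 137 CPM in the mutant, 123 and 135 CPM in wild type and 214 CPM at E10.5. Both mutant libraries were above both wild-type libraries, but mutant replicate 2 (137 CPM) lay close to wild-type replicate 2 (135 CPM). Pecam1 and Cdh5 each overlapped between the genotypes, and Kdr and Tie1 did not. Pecam1 (0.02, edgeR adjusted p = 0.948) and Cdh5 (0.17, adjusted p = 0.515) were not called. There were 2.37 and 3.60 Cxcr4 counts for each 100 counts of these 4 genes in the mutant, 5.19 and 5.65 in wild type and 5.76 at E10.5. Of 20 endothelial genes the VEGF receptor gene Flt1 rose (0.69, adjusted p = 0.0329) and the transcription factor gene Erg fell (-0.54, adjusted p = 0.0121), with a median of 0.18 and 10% called beside 7.16% of all genes. Leaving out wild-type replicate 2 gave 2 risen, and no filter on low counts gave 3. The Flt1 value was 0.43 without mutant replicate 1 (adjusted p = 0.344) and 0.55 without wild-type replicate 2 (0.060), and Erg was not called once mutant replicate 2 was left out (0.0745). The summed level of the 20 genes was 372 and 336 CPM in the mutant, 322 and 336 CPM in wild type and 472 CPM at E10.5.

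Macrophages can carry CXCR4, and surface ectoderm and neurons can carry MET. Of 14 macrophage marker genes read in whole tissue, 3 rose and 0 fell (Mrc1 0.62, Lyz2 1.19 and Itgam 1.10). That is 21.4%, beside 3.82% of all genes that rose and 7.16% called. The list summed to 84.3 and 81.6 CPM in the mutant, 53.2 and 70.8 CPM in wild type and 20.5 CPM at E10.5. This sum was higher in the mutant where Cxcr4 was lower. The 4 defining genes of the list summed to 24.1 and 21.4 CPM in the mutant and 18.5 and 23.2 CPM in wild type. In these defining genes the genotypes overlapped. DESeq2 called 2 of the 14 genes higher and 0 lower, and 0 were lower in edgeR at an unadjusted p below 0.05. Leaving out wild-type replicate 1 took Mrc1 to 0.36, and leaving out wild-type replicate 2 took it to 0.93. Itgam lost its call in DESeq2 (adjusted p = 0.108) and in 5 of the other 9 alternatives. Of 16 surface ectoderm marker genes 0 rose, and the keratin genes Krt8 (-0.56) and Krt14 (-0.42) fell. That is 12.5%, beside 3.34% of all genes that fell and 7.16% called. The list summed to 405 and 425 CPM in the mutant, 431 and 456 CPM in wild type and 391 CPM at E10.5, lower in the mutant as Met was. DESeq2 called 0 higher, and 0 were higher in edgeR at an unadjusted p below 0.05. Both keratin calls were lost when mutant replicate 1 (0.09 and 0.316) or wild-type replicate 2 (0.0558 and 0.0666) was left out, and 0 genes of the list were then called lower. Of 14 neuron and Schwann cell genes Gap43 rose (0.98) and Tubb3 (-1.54) and Stmn2 (-1.57) fell, or 21.4% called beside 7.16% of all genes. Their 4 defining genes summed to 15.6 and 16.2 CPM in the mutant, 34.7 and 40.1 CPM in wild type and 18.2 CPM at E10.5, also lower in the mutant as Met was. The whole list summed to 67.1 and 69.8 CPM in the mutant, 82.0 and 83.0 CPM in wild type and 68.1 CPM at E10.5. Against the 4 neuron and Schwann cell markers both receptor genes were higher in the mutant. For each 100 counts of these markers there were 207 and 208 Met counts in the mutant, 112 and 126 in wild type and 420 at E10.5, and 23.7 and 30.5 Cxcr4 counts in the mutant, 18.4 and 19.1 in wild type and 67.6 at E10.5. Both receptor genes were lower in both mutant libraries against the 4 markers of macrophages (Csf1r, Adgre1, C1qa and Ptprc). This was so against the 4 of ectoderm (Krt14, Cdh1, Epcam and Trp63) too. There were 2.29 and 2.82 Cxcr4 counts for each 100 ectoderm counts in the mutant against 3.52 and 4.00 in wild type. The Met counts for each 100 ectoderm counts were 20.1 and 19.2 in the mutant and 21.4 and 26.5 in wild type. For Met, wild-type replicate 1 thus lay close to the mutant libraries. None of the defining markers of the 7 marker lists was at 0 in all libraries, and the part of these cells in the receptor levels was not tested.

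**Figure D5:**
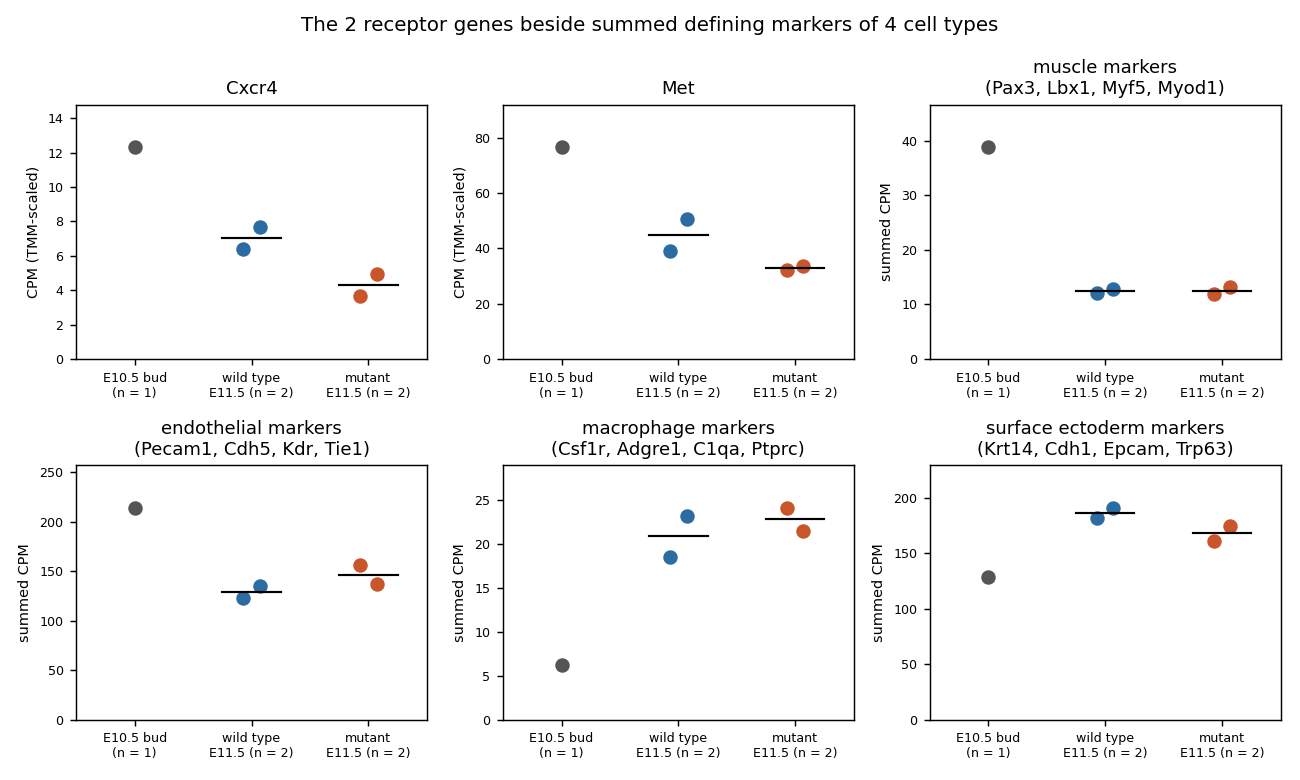
Levels of Cxcr4 and Met and summed levels of 4 defining markers each of muscle, endothelium, macrophages and surface ectoderm, in CPM of the TMM-scaled library size (vertical axes, from 0), in every library (horizontal axes). Points are libraries and bars are means of 2 libraries. The muscle sum is 11.9 and 13.1 CPM in the mutant against 12.0 and 12.8 CPM in wild type, and 38.8 CPM at E10.5.

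The libraries held between 45115494 and 84172202 counts in genes. Hoxd13 measured 45.8 and 38.2 CPM in the mutant against 236 and 242 CPM in wild type (log2 fold change -2.50, edgeR adjusted p = 1.12e-07). Hoxa13 was not called (-0.17, edgeR adjusted p = 0.438). Reads from outside the inserted cassette may remain, and where the Hoxa13 reads lie was not tested. The forelimb gene Tbx5 lay between 77.5 and 96.8 CPM in all 5 libraries, and the hindlimb genes Tbx4 and Pitx1 summed to between 6.97 and 10.2 CPM. Of 15 genes of limb mesenchyme, the tissue that makes HGF, 1 rose and 7 fell, or 53.3% beside 7.16% of all genes, with a median of -0.39 and a summed level of 2408 and 2384 CPM in the mutant, 2506 and 2421 CPM in wild type and 2290 CPM at E10.5. The 4 defining genes Prrx1, Tbx5, Twist1 and Pdgfra summed to 1596 and 1600 CPM in the mutant and 1389 and 1371 CPM in wild type. At E10.5 they summed to 1320 CPM. This sum was thus higher in both mutant libraries, while the median of the list was below 0. Of the 15 genes Prrx1 rose (0.49), and Msx1 (-0.84), Fgf10 (-0.68), Twist1 (-0.48), Tcf4 (-0.44) and Hand2 (-0.48) were the 5 others of smallest p. Leaving out mutant replicate 2 ended the calls of Twist1 (adjusted p = 0.108), Tcf4 (0.0712) and Hand2 (0.189), among others, so that 2 genes in place of 7 fell. Leaving out mutant replicate 1 ended that of Tcf4 (0.16). Of 9 erythroid genes Hbb-bh1 rose (0.81) and 0 fell, or 11.1% beside 7.16% of all genes, with 1 called higher and 0 lower by DESeq2. At an unadjusted p below 0.05 in edgeR 6 of the 9 were higher and 0 lower. Without wild-type replicate 1, or with no filter on low counts, 4 rose, and without mutant replicate 2 or wild-type replicate 2, 2 rose. The erythroid list summed to 3146 and 3076 CPM in the mutant, 2562 and 2525 CPM in wild type and 4330 CPM at E10.5. Their parts in the levels of the 5 genes were not tested.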

How the data were processed

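Total RNA of 5 forelimb libraries was depleted of ribosomal RNA and sequenced from both ends, per the labels' protocols. Each deposited table lists, for every gene symbol, a raw read count. HTSeq, SAMtools, Cufflinks 2.1.1 and TopHat2 2.0.13 are named, with the build mm9, in the submitters' processing notes. The strand setting and annotation of the counting are not given in the sources used here. The 5 HTSeq total lines entered neither library sizes nor tests, and the one for reads outside any gene held 24.3% to 39.6% of the table's reads.

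Low genes were removed by filterByExpr (at least 10 counts, total at least 15). After TMM scaling, genotype was tested over the 4 E11.5 libraries by the quasi-likelihood approach of edgeR 4.0.16 (R 4.3.3), with no other term and with Benjamini-Hochberg adjustment over 16166 genes. The fit was tested on simulated data. Printed CPM use TMM factors over 5 libraries in place of plain totals, so that levels and fold changes share a scale. DESeq2 1.42.0 was an alternative. The members and lists were chosen with earlier results of these data known. In each list the genes named were all called genes, or the 6 of smallest p, plus Ackr3, Cxcl14, Pax3, Lbx1, Myod1, Myf5, Cdh5 and Pecam1. At E10.5 they were the 3 called genes of largest difference in each direction of the CXCL12 and HGF-MET lists, and for likeness the 3 nearest genes of each member. An item that this rule would name is not reported here. Lists were described by counts and medians, without a set test. All 222 listed genes were matched.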

Additional observations from a re-analysis of the deposited data

How the results depend on the processing

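The fit of mutant against wild type was repeated under 10 alternatives, and Cxcl12 was called in all of them, with a log2 fold change of 1.47 to 1.74 when 1 library was left out. Gab1 was called in none (-0.23 to -0.06 with a library left out), and neither was Hgf, which ran from -0.10 without wild-type replicate 1 to 0.24 without wild-type replicate 2, so that its sign turned. Cxcr4 ran from -0.92 to -0.50 and Met from -0.62 to -0.22 with a library left out. Cxcr4 passed the threshold with no filter on low counts (-0.70, adjusted p = 0.00456), in DESeq2 (-0.70), with the newer quasi-likelihood estimate (-0.71) and with 5 libraries in the fit (-0.71). Met passed it with no filter (-0.44, adjusted p = 0.00381) and in DESeq2 (-0.44). With the replicate number as a block Cxcr4 had -0.70 (adjusted p = 0.0388) and Met -0.42 (adjusted p = 0.0257), and Cxcl12 had 1.60. Replicate numbers are not said to mark shared batches, and the deviations of same-numbered libraries correlated at -0.08, so the block pairs libraries by number only. The genes called numbered 1762 with no filter in place of 1157, and those risen 959 in place of 617. With 1 library left out the ranges were 796 to 2018 called, 410 to 1113 risen and 373 to 905 fallen, the highest each time without wild-type replicate 1. Pathway genes called went from 6 to 12 with no filter and ran from 5 to 18 with a library left out, again highest without wild-type replicate 1. In such fits the lone library of a genotype is assumed to vary like the others. The cause of these shifts was not tested. Without a library, the signs of Myf5 (-0.079 to 0.20) and Pecam1 (-0.092 to 0.15) turned, as Myf5 also did without mutant replicate 2 (-0.04) and Pecam1 without mutant replicate 1 (-0.07). At E10.5, library totals gave 0.99 for Cxcl12, 0.56 for Cxcr4, 1.32 for Hgf and -0.062 for Gab1, and 403 genes higher in place of 663. With 1 wild-type library left out, 873 to 982 genes were higher at E10.5. The 5 genes had 230 or more counts in every library.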

Other observations

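The chromosomal neighbours of the 5 genes, up to 3 tested genes on each side in the RefSeq order of GRCm38, were read as a description. Around Cxcl12, Met and Hgf 1 of 6 neighbours each was called, and around Cxcr4 and Gab1 0 of 6, beside 7.16% of all genes tested. Next to Cxcl12, Depp1, listed as 8430408G22Rik and named after its value was seen, rose from 5.07 and 5.29 CPM in the wild-type libraries to 12.6 and 8.93 CPM in the mutant libraries (log2 fold change 1.06, SE 0.18, edgeR adjusted p = 0.00367). The other 5 neighbours of Cxcl12 were not called. Next to Met, Cav1, a coat protein gene of caveolae, rose from 19.1 and 21.2 CPM to 42.8 and 33.5 CPM (0.93, SE 0.13, adjusted p = 0.000759), while Met itself was lower in the mutant. Next to Hgf, Sema3c, a secreted guidance cue, fell from 37.7 and 35.5 CPM to 20.1 and 22.2 CPM (-0.79, SE 0.10, adjusted p = 0.000567), while Hgf was not called. None of the 6 neighbours of Cxcr4 or of Gab1 was called by edgeR or by DESeq2, and at an unadjusted p below 0.05 edgeR had 0 around Cxcr4 and 1 around Gab1.

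Cxcl12 and Met lie on chromosome 6, which also holds the targeted Hoxa13. On this chromosome 9.94% of 825 tested genes were called, against 9.61% of 1269 on chromosome 2, which holds the targeted Hoxd13. The shares on chromosomes 1, 5 and 8, which hold Cxcr4, Hgf and Gab1, were 7%, 6.55% and 5.41%, and that of all genes 7.16%. The difference between chromosomes was not tested.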
